A study of Mus musculus with 8 samples.

Results

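The 10 genes described here encode the contractile apparatus of smooth muscle. They were chosen by symbol, as 2 actins (*Acta2* and *Actg2*), the smooth muscle myosin heavy chain *Myh11*, the regulatory myosin light chain *Myl9* and its kinase *Mylk*, the actin-associated proteins *Cnn1*, *Tagln* and *Lmod1*, and the intermediate filament proteins *Des* and *Synm*. All 10 were among the 15859 genes in the deposited table of counts, and all 10 were among the 14371 genes tested.

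Smooth muscle contracts when calcium activates the kinase that phosphorylates the myosin light chain, so that myosin filaments pull on actin filaments anchored in dense bodies. Many of these genes share a transcriptional control by serum response factor, *Srf*, and its coactivator *Myocd*, which act at the CArG box. In the colon, these genes are transcribed mainly in the outer muscle coat and in the thin muscle layer of the mucosa, and *Acta2* is also transcribed in activated fibroblasts, pericytes and vessel walls.

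Distal colons of 8 male mice, 2 in each of 4 groups, were used for RNA sequencing. WT mice and mice null for *Hsf1*, the master transcription factor of the heat shock response, shared a mixed BALB/c x 129SvEV background, and the null allele was not restricted to a cell type. Day 0 mice were untreated, and day 15 mice had been injected with the carcinogen azoxymethane (AOM) at 10 mg/kg at the age of 8 weeks and given 1.5% dextran sulfate sodium (DSS), an irritant of the colon epithelium, for 5 days from day 7. None of the 4 groups was sham-treated and collected at day 15, so AOM, DSS and the day of collection cannot be told apart. Colons are called untreated at day 0 and treated at day 15, and those of *Hsf1* null mice are called null. All mice are labelled as 10 weeks old. The sample titles give day 15 for the treated mice, whereas the treatment text in the labels ends with DSS. Libraries held between 2553348 and 12440257 counts, and the shallowest were those of replicate 2 in both day 0 groups. Values are given per mouse, replicate 1 before replicate 2, as CPM, the counts scaled to library size with TMM factors. CPM values of 1 gene can be compared between mice, and levels of different genes are compared as CPM per kilobase of exon.

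*Hsf1* itself was measured at 40.5 and 36.5 CPM in untreated WT colons, 14.0 and 11.9 CPM in untreated null colons, 50.5 and 45.9 CPM in treated WT colons, and 13.5 and 9.09 CPM in treated null colons. Every null mouse was below every WT mouse. *Hsf1* was called higher in WT at day 15 (log2 fold change 2.10, SE 0.30, adjusted p = 0.0137 by edgeR) and not at day 0 (1.57, SE 0.30, adjusted p = 0.775). A gene is called here at an adjusted p under 0.05 and a log2 fold change beyond 1 in either direction. The 8 skeletal muscle markers in the table summed to between 14.3 and 43.6 CPM.

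The promoters of these genes are shown because the genes moved together and because CArG boxes and heat shock elements can be searched for in them. RefSeq sequence on GRCm38.p6, from 250 bases before to 50 bases after the start site, was at hand for 7 of the 10 genes (*Acta2*, *Des*, *Cnn1*, *Myl9*, *Mylk*, *Lmod1* and *Synm*). The CArG box, searched on both strands, was found in 1 of the 7, *Myl9*, and in 1.63% of the promoters of other genes. With up to 1 mismatch in its 6 middle letters it was found in 3 of the 7 and in 9.98% of other promoters. The start site is that of RefSeq and can differ from the outer end of the GENCODE gene given with each gene below. It lies 217 bases inside the GENCODE gene for *Acta2* and 44 bases inside it for *Myl9*, and at its end for *Synm*. For *Mylk* it is an internal start, 39740 bases inside the gene, and the window does not reach the outermost start of the gene. The 250 bases before the RefSeq start site of *Acta2*, *Myl9* and *Synm* follow, 5′ to 3′, with the matches in capitals. They lie at chr19:34255374-34255623 on the minus strand for *Acta2*, at chr2:156775214-156775463 on the plus strand for *Myl9*, and at chr7:67759743-67759992 on the minus strand for *Synm*.
Acta2: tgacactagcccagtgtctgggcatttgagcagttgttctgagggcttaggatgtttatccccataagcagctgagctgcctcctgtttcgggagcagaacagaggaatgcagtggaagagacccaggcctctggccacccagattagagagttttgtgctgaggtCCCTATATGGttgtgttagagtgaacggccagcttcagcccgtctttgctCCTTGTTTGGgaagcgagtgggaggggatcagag
Myl9: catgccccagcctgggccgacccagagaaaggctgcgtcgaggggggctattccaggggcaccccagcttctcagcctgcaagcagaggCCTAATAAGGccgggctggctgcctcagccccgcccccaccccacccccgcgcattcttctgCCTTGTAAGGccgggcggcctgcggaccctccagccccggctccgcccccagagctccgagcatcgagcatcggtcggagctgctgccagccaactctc
Synm: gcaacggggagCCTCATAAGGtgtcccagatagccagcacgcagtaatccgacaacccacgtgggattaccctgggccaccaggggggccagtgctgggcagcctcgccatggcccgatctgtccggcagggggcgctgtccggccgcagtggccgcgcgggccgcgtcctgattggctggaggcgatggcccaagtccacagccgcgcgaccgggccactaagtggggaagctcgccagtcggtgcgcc
The strict match of *Myl9* is CCTAATAAGG, which begins 161 bases before the start site. *Acta2* has CCCTATATGG at 84 bases and CCTTGTTTGG at 34 bases before its start site, *Myl9* has a further match with a mismatch, CCTTGTAAGG, at 99 bases, and *Synm* has CCTCATAAGG at 239 bases. The core of the heat shock element, spelled GAANNTTC or TTCNNGAA, was found in 1 of the 7 promoters, as GAACATTC at 161 bases before the start site of *Mylk*, and in 15.1% of other promoters. These matches describe letters in short windows and do not show binding.

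At day 15 of AOM–DSS the contractile genes were lower than at day 0 in WT colons, and 7 of the 10 were called lower. *Actg2* fell 4.86-fold, *Tagln* 3.70-fold, *Synm* 3.58-fold, *Des* 3.49-fold, *Cnn1* 3.41-fold, *Myh11* 3.02-fold and *Mylk* 2.32-fold. Over all genes tested, 4.27% were called lower in the same comparison. Together the 10 genes took up 0.903% and 1.11% of all counts in untreated WT colons, and 0.445% and 0.260% in treated WT colons. In *Hsf1* null mice their share was 0.811% and 0.848% at day 0 and 0.524% and 0.678% at day 15. CPM and shares of counts are relative to all RNA in a bulk sample. Fewer smooth muscle cells, less RNA per cell and more RNA from other cells therefore cannot be told apart.

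**Figure D1:**
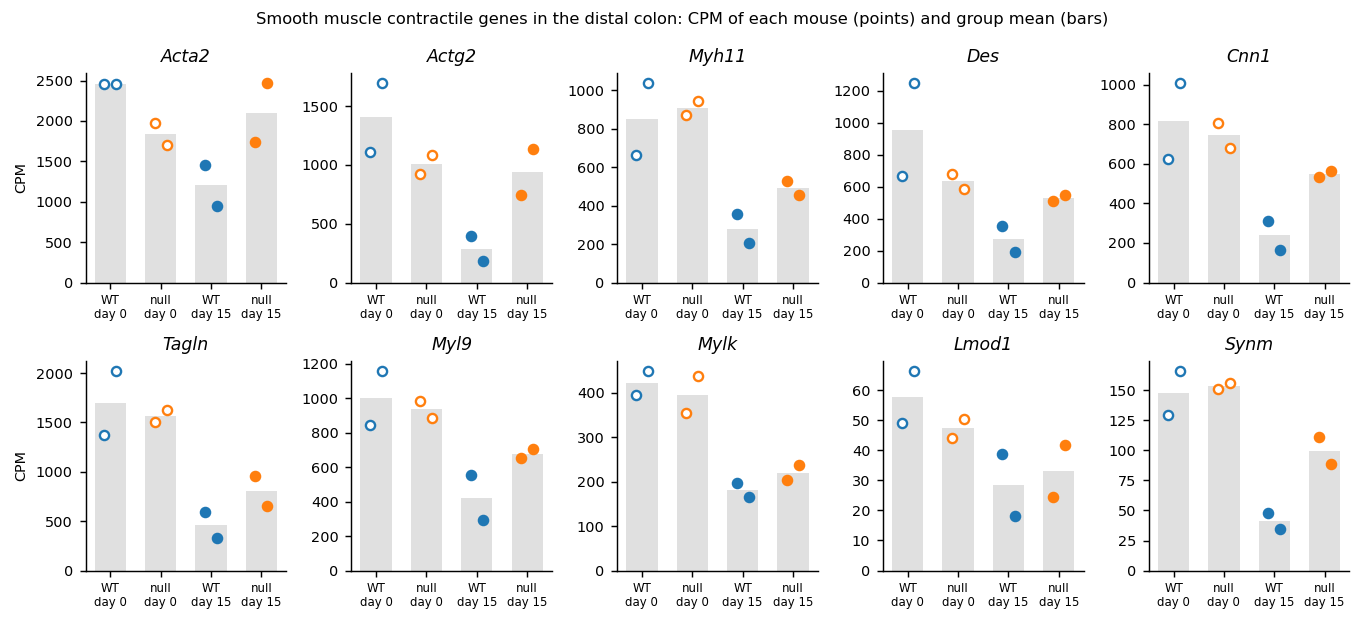
CPM (y axis, linear from 0) of each of the 10 contractile genes in the 4 groups, with a point for each mouse and a bar at the mean of the 2 mice. For every gene, both WT mice at day 15 (filled blue) lie below both WT mice at day 0 (open blue), and *Hsf1* null mice at day 15 (filled orange) lie between 453 and 530.3 CPM for *Myh11* and between 748 and 1132 CPM for *Actg2*.

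The 2 actins form the thin filaments. *Acta2* (chr19:34241090-34255590, minus strand), the alpha actin of smooth muscle, was at 2462 and 2452 CPM in untreated WT colons and at 1459 and 948 CPM in treated WT colons. In *Hsf1* null mice it was at 1975 and 1699 CPM at day 0 and at 1737 and 2467 CPM at day 15. The WT mice at day 15 were the lowest of the 8, and the *Hsf1* null mice at day 0 and day 15 overlapped. Its change in WT was not called (log2 fold change -1.03, SE 0.34, adjusted p = 0.0867 by edgeR).

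*Actg2* (chr6:83512905-83536265, minus strand), the gamma actin of enteric smooth muscle, changed most among the 10 in WT. It was at 1113 and 1694 CPM in untreated WT colons and at 395 and 182 CPM in treated WT colons (log2 fold change -2.28, SE 0.42, adjusted p = 0.0161 by edgeR). In *Hsf1* null mice it was at 925 and 1088 CPM at day 0 and at 748 and 1132 CPM at day 15, which overlapped (log2 fold change -0.10, SE 0.40, adjusted p = 0.890). Both WT mice at day 15 were below the other 6 mice. The coding sequences of the 2 actins are close to each other, and reads that match both can be assigned to either or lost in counting, so their separate levels are less certain than their sum.

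Myosin forms the thick filaments. *Myh11* (chr16:14194535-14291372, minus strand), the motor protein of smooth muscle, was at 662 and 1037 CPM in untreated WT colons and at 355 and 207 CPM in treated WT colons. It was at 869.5 and 947 CPM in untreated null colons and at 530.3 and 453 CPM at day 15. It was thus below every day 0 mouse in all 4 day 15 mice, and its change was called in WT (log2 fold change -1.59, SE 0.34, adjusted p = 0.0256 by edgeR) and not in *Hsf1* null mice (-0.89, SE 0.34, adjusted p = 0.103).

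*Myl9* (chr2:156775420-156781658, plus strand), the light chain whose phosphorylation starts contraction, was at 844 and 1158 CPM in untreated WT colons, 555 and 292 CPM in treated WT colons, 984 and 887 CPM in untreated null colons, and 652 and 703 CPM in treated null colons. *Mylk* (chr16:34745210-35002420, plus strand), the kinase of that light chain, was at 395 and 448 CPM, 197 and 166 CPM, 353 and 438 CPM, and 203 and 237 CPM in the same order. Day 0 and day 15 did not overlap for either gene in either genotype. *Mylk* was the gene of the set whose change differed least between genotypes (log2 fold change -1.21, SE 0.25, adjusted p = 0.0224 in WT, and -0.84, SE 0.25, adjusted p = 0.0498 in *Hsf1* null mice, by edgeR), and in the null mice it missed the threshold on the fold change. *Mylk* also encodes forms of the kinase that are found outside smooth muscle, and the counts do not separate the forms.

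*Cnn1*, *Tagln* and *Lmod1* encode proteins that bind actin filaments. *Tagln* (chr9:45929619-45936058, minus strand), known as transgelin or SM22, was at 1374 and 2020.0 CPM in untreated WT colons and at 589 and 327 CPM in treated WT colons. In *Hsf1* null mice it was at 1504 and 1622 CPM at day 0 and at 953 and 657 CPM at day 15, the most negative value of the set in that genotype (log2 fold change -0.96, SE 0.37, adjusted p = 0.107 by edgeR), which was not called. Of its exon bases, 62.4% overlap those of *Gm48529* on the other strand, which has no row in the count table, and 5.43% those of *Pcsk7*, which had between 182 and 939 counts per library. Whether counting used the strand is not given in the sources used here.

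*Cnn1* (chr9:22099216-22109630, plus strand), calponin, was at 623 and 1007 CPM in untreated WT colons, 311 and 167 CPM in treated WT colons, 805 and 682 CPM in untreated null colons, and 531 and 563 CPM in treated null colons. *Lmod1* (chr1:135324807-135368065, plus strand), leiomodin, which promotes the assembly of actin filaments, was at 48.9 and 66.3 CPM, 38.8 and 18.0 CPM, 44.2 and 50.3 CPM, and 24.5 and 41.7 CPM in the same order. *Cnn1* had the order of groups that *Actg2* had, with the WT mice at day 15 lowest. *Lmod1*, with as few as 140 counts in a library, was not called in any comparison, and its day 15 groups overlapped.

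*Des* and *Synm* belong to the intermediate filaments that link the contractile filaments to dense bodies and to the cell membrane. *Des* (chr1:75360329-75368579, plus strand), desmin, was at 664 and 1246 CPM in untreated WT colons, 353 and 193 CPM in treated WT colons, 678 and 586 CPM in untreated null colons, and 512 and 546 CPM in treated null colons. *Synm* (chr7:67730160-67759742, minus strand), synemin, which assembles with desmin, was at 129.6 and 166 CPM, 47.8 and 34.3 CPM, 151 and 156 CPM, and 111 and 88.7 CPM in the same order. *Synm* had the smallest adjusted p of the set in WT (log2 fold change -1.84, SE 0.26, adjusted p = 0.00754 by edgeR), and the genotypes did not overlap at day 15.

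Compared per length, the order of the levels was led by the actins, the light chain and transgelin. At day 0 in WT mice the means were 1119 CPM per kilobase of exon for *Acta2*, 901 for *Actg2*, 861 for *Myl9* and 854 for *Tagln*, 298 for *Cnn1*, 254 for *Des*, 112 for *Myh11*, 37.4 for *Mylk*, 18.6 for *Synm* and 14.6 for *Lmod1*. At day 15 in WT mice the means were 548 CPM per kilobase for *Acta2*, 364 for *Myl9*, 230.5 for *Tagln* and 185 for *Actg2*. By these means *Actg2* was above *Myl9* and *Tagln* in untreated WT colons and below them in treated ones. In null colons the order of the means was the opposite. *Actg2* was at 646 CPM per kilobase at day 0, below 805 for *Myl9* and 786 for *Tagln*. At day 15 it was at 604, above 583 for *Myl9* and 405 for *Tagln*. The 2 treated null mice disagreed on *Actg2* and *Myl9*, at 481 against 561 in replicate 1 and 727 against 605 in replicate 2. The weakest gene was *Lmod1* in untreated WT colons and *Synm* in treated ones, at 5.18 CPM per kilobase beside 7.19 for *Lmod1*. The neighbours *Actg2*, *Myl9* and *Tagln* in untreated WT colons differed by less than the spread between the 2 mice, which for *Actg2* was 411 CPM (SD, n = 2) around a mean of 1403 CPM. The CPM per kilobase uses every annotated exon of a gene, used in the colon or not.

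The remaining 3 genes, *Acta2*, *Myl9* and *Lmod1*, were not called in WT by edgeR, although all 10 genes had an unadjusted p under 0.05 and both WT mice at day 15 below both at day 0. Over all genes tested, 13.8% had such a p and were lower, and 31.5% were lower without overlap. Their median log2 fold change was -1.68, beside 0.0 over all genes tested, and the values ran from -2.28 to -1.01. DESeq2 called 9 of the 10, with *Acta2* (log2 fold change -1.02, adjusted p = 0.011) and *Myl9* (-1.23, adjusted p = 0.0043) added, among 1737 genes in all, where edgeR called 1112. With counts thinned to the smallest library, edgeR called 8, with *Myl9* added (adjusted p = 0.0474). The calls by edgeR rested on both replicate 2 mice. Without WT day 0 replicate 2, none of the 10 genes was called, with log2 fold changes between -1.93 for *Actg2* and -0.77 for *Lmod1*, and 133 genes in all were called in place of 1112. Without WT day 15 replicate 2, again none of the 10 and 92 genes in all were called, and without both libraries of lowest depth none of the 10 and 4 in all were called (an alternative chosen after the data were seen).

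In *Hsf1* null colons, none of the 10 genes was called between day 0 and day 15 by edgeR or DESeq2, and 4 had an unadjusted p under 0.05 by edgeR (*Mylk*, *Myh11*, *Tagln* and *Synm*). Over all genes tested, 6.48% were called lower and 16.3% were lower with such a p. As a median, the log2 fold change was -0.49, beside 0.05 over all genes tested, and the values ran from -0.96 for *Tagln* to 0.19 for *Acta2*. For 8 of the 10 genes both mice at day 15 were below both at day 0, against 30.3% of all genes tested, and the exceptions were the 2 actins. The calls over all genes in this comparison rested on single libraries. They numbered 1692 with all mice, 0 without *Hsf1* null day 0 replicate 2, 361 without *Hsf1* null day 15 replicate 2 and 487 without *Hsf1* null day 15 replicate 1, and the calls of partner genes in *Hsf1* null mice given below come from the same comparison.

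**Figure D2:**
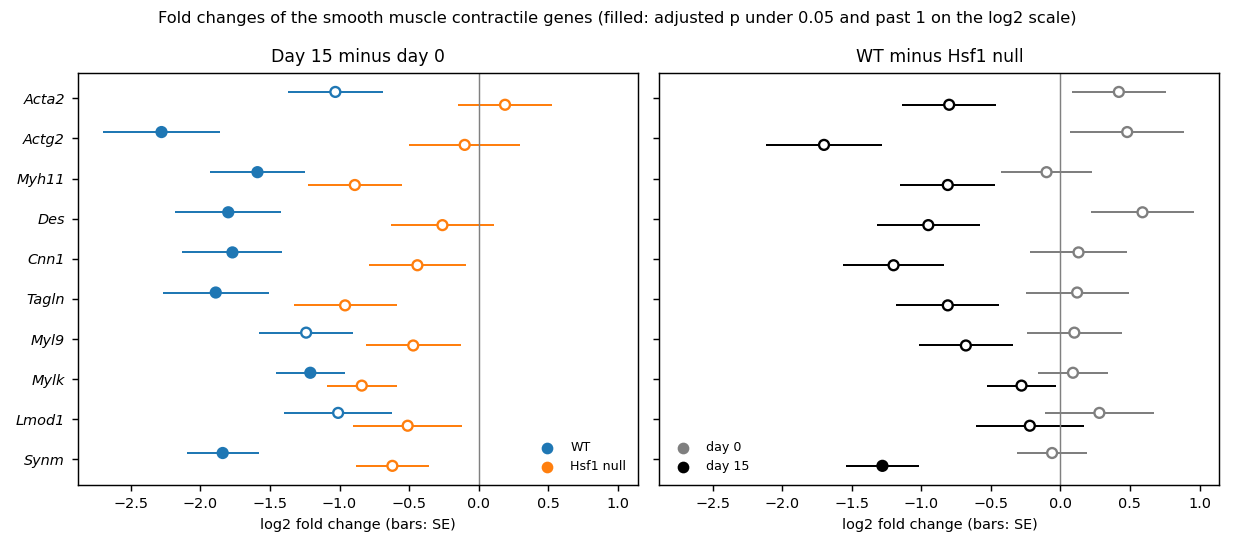
Log2 fold changes (x axis) of the 10 genes (y axis) with bars for the SE from the edgeR model of 4 groups with 2 mice each, for day 15 minus day 0 in each genotype on the left and for WT minus *Hsf1* null at each day on the right. Filled points were called, which holds for 7 genes in WT on the left and for *Synm* at -1.28 on the right, and no gene was called in *Hsf1* null mice or at day 0.

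Between the genotypes at day 15, *Synm* was called lower in WT than in *Hsf1* null mice, by 2.43-fold (log2 fold change -1.28, SE 0.26, adjusted p = 0.0340 by edgeR), where 1.91% of all genes tested were called lower. The other 9 were not called. *Actg2* was 3.26-fold lower in WT (log2 fold change -1.70, SE 0.42, adjusted p = 0.0570) and *Cnn1* 2.29-fold lower (-1.20, SE 0.36, adjusted p = 0.0901), and 6 of the 10 genes had an unadjusted p under 0.05, as had 11.6% of all genes in this direction. For 9 of the 10 genes both WT mice were below both *Hsf1* null mice, as for 26.3% of all genes, and *Lmod1* was the exception. At the median, the log2 fold change was -0.81, beside 0.03 over all genes tested. This median was -0.5 without WT day 15 replicate 2 and -1.27 without WT day 15 replicate 1. DESeq2 called *Actg2*, *Cnn1* and *Synm* among 1197 genes in all, where edgeR called 455. With 1 mouse left out, the log2 fold change of *Actg2* by edgeR ran from -2.37 to -1.25. The call of *Synm* was lost, with adjusted p between 0.0661 and 0.213, without replicate 1 or replicate 2 of *Hsf1* null day 0, WT day 15 replicate 2 or *Hsf1* null day 15 replicate 1. Its log2 fold change in these 4 fits was -1.28, -1.28, -1.06 and -1.12, and the calls over all genes, 455 with all mice, were 12, 12, 19 and 30.

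Untreated mice of the 2 genotypes did not differ detectably in these genes. None of the 10 genes was called at day 0 by edgeR or DESeq2, and none had an unadjusted p under 0.05 by edgeR. Over all genes tested, 0% were called, 3.93% were higher in WT with such a p and 2.36% were lower. The smallest unadjusted p was that of *Des*, 0.142, at a log2 fold change of 0.59 (SE 0.37). Both actins were higher in WT without overlap, as were 18.4% of all genes. With 2 mice a group a difference of this size cannot be separated from the spread between mice.

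The question whether the change differed between the genotypes was tested as an interaction in the same model. None of the 10 genes was called, and 1 of the 14371 genes was called in all (0.00696%). *Actg2* had the largest value, with a change in WT that was lower than that in *Hsf1* null mice by 2.18 on the log2 scale (difference -2.18, SE 0.58, unadjusted p = 0.00365, adjusted p = 0.392 by edgeR). *Synm* (-1.22, unadjusted p = 0.00712), *Des* (-1.55, unadjusted p = 0.0150), *Cnn1* (-1.33, unadjusted p = 0.0238) and *Acta2* (-1.22, unadjusted p = 0.0287) also had an unadjusted p under 0.05 in edgeR's test, which 5.04% of all genes had in this direction. All 10 differences were below 0, as were 50.2% of those over all genes, and their median was -1.08. DESeq2 called *Actg2* (adjusted p = 0.0106) among 130 genes in all. The calls in WT and the lack of them in *Hsf1* null mice therefore do not show by themselves that the genotypes differed.

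Ratios of counts within a library do not depend on how libraries are scaled. They hold the lengths of both genes, so each ratio is compared between mice and not with 1. The ratio of *Actg2* to *Acta2* was 0.452 and 0.691 in untreated WT colons, 0.468 and 0.640 in untreated null colons, 0.271 and 0.192 in treated WT colons, and 0.431 and 0.459 in treated null colons. The 2 WT mice at day 15 had the lowest ratios. In null mice, too, both ratios at day 15 were below both at day 0, by a smaller margin. The ratio of *Myh11* to *Acta2* was 0.269 and 0.423, 0.440 and 0.558, 0.243 and 0.219, and 0.305 and 0.184 in the same order, so day 15 was below day 0 within each genotype and the genotypes overlapped at day 15.

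The ratio of *Des* to *Acta2* was lower at day 15 than at day 0 in each genotype, at 0.242 and 0.204 against 0.270 and 0.508 in WT mice and at 0.295 and 0.222 against 0.343 and 0.345 in *Hsf1* null mice. The ratio of the kinase *Mylk* to its substrate *Myl9* was between 0.311 and 0.570, and it was 0.467 and 0.387 in untreated WT colons, 0.359 and 0.494 in untreated null colons, 0.355 and 0.570 in treated WT colons, and 0.311 and 0.338 in treated null colons. The WT groups overlapped, and the treated null colons were below each of the other 3 groups. The ratios are given as values with no test.

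**Figure D3:**
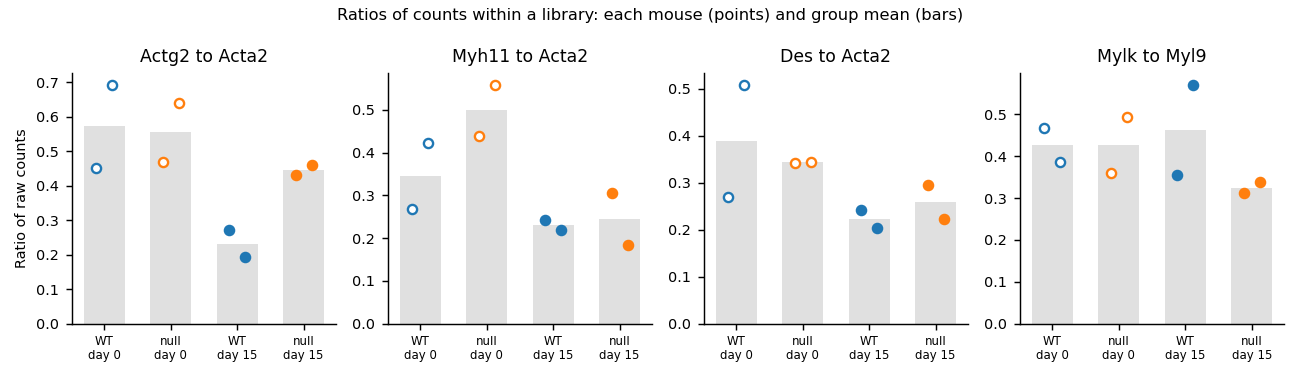
Ratios of raw counts (y axis, linear from 0) of 4 pairs of contractile genes in the 4 groups, with a point for each mouse and a bar at the mean of 2 mice. The ratio of *Actg2* to *Acta2* is lowest in both WT mice at day 15, at 0.271 and 0.192, and the ratio of *Mylk* to *Myl9* shows no such order.

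The contractile genes depend on a wider set of partners, which were read from 6 lists of genes. Of 17 other actin-binding and dense-body genes tested, 6 were called lower at day 15 in WT (among them *Fhl1*, *Synpo2*, *Tpm2*, *Pdlim3* and *Csrp1*) and 3 in *Hsf1* null mice (among them *Fhl1* and *Synpo2*), and none was called higher. The names were taken from the calls. Among all genes tested, 4.27% were called lower in WT and 6.48% in *Hsf1* null mice, the shares to set beside each of the 6 lists. The median log2 fold change of the actin-binding and dense-body list was -0.72 in WT and -0.08 in *Hsf1* null mice. *Synpo2*, a dense-body protein, was at 104 and 118 CPM in untreated WT colons and at 39.1 and 23.0 CPM at day 15, and at 93.5 and 124 CPM in untreated null colons and at 33.5 and 37.0 CPM at day 15. In contrast to the actins, it did not overlap between day 0 and day 15 in either genotype.

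*Tpm2*, a tropomyosin that lies along the actin filament, was the gene of that list with the smallest p between the genotypes at day 15. Its level was 603 and 1036 CPM in untreated WT colons, 835 and 923 CPM in untreated null colons, 378 and 190.0 CPM in treated WT colons, and 618 and 887 CPM in treated null colons. Its WT mice at day 15 were lowest, as for *Actg2*. The difference between the genotypes at day 15 was not called (log2 fold change -1.41, SE 0.40, adjusted p = 0.0772 by edgeR).

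Genes that act on the phosphorylation of the myosin light chain formed another list. Of 9 tested, 1 was called lower in WT, *Ppp1cb*, the catalytic subunit of myosin phosphatase, and 3 in *Hsf1* null mice, *Ppp1cb*, *Prkg1*, the cGMP-dependent kinase, and *Rock1*, a kinase that acts on myosin phosphatase. *Ppp1cb* was at 324 and 375 CPM in untreated WT colons and 137 and 151 CPM at day 15, and at 359 and 732 CPM in untreated null colons and 125 and 142 CPM at day 15. Over the list, the median log2 fold change was -0.75 in WT and -0.51 in *Hsf1* null mice. *Rock2*, the gene with the smallest p between the genotypes at day 15, differed there by -0.35 (SE 0.23, adjusted p = 0.388 by edgeR).

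Of 12 genes that handle calcium and potassium, 2 were called lower in WT, *Pln*, the inhibitor of the calcium pump, and *Cav1*, of the caveolae, and 2 in *Hsf1* null mice, *Cav1* and the potassium channel *Kcnma1*. The list had a median log2 fold change of -0.95 in WT and -1.15 in *Hsf1* null mice. *Itpr1*, the calcium channel that releases stores and the gene with the smallest p between the genotypes at day 15, was at 51.2 and 69.7 CPM in WT mice and at 108 and 107 CPM in treated null colons, and was not called (log2 fold change -0.83, SE 0.23, adjusted p = 0.0761 by edgeR).

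Of 10 receptors and genes of cGMP signalling, 1 was called lower in WT, the prostaglandin receptor *Ptger3*, and 3 in *Hsf1* null mice, the guanylate cyclase subunits *Gucy1a3* and *Gucy1b3* and the tachykinin receptor *Tacr2*. Their median log2 fold change was -0.89 in WT and -1.29 in *Hsf1* null mice. Counts were few for some of them, and *Tacr2* was at 2.17 and 0.267 CPM in treated null colons. *Ednra*, the endothelin receptor with the smallest p between the genotypes at day 15, was at 42.7 and 37.7 CPM in WT mice and at 5.43 and 20.3 CPM in *Hsf1* null mice, higher in WT by 1.63 on the log2 scale (SE 0.59, adjusted p = 0.140 by edgeR), opposite in sign to the contractile genes.

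The dystrophin complex links the filaments to the membrane. Of 9 genes tested, 1 was called lower in WT, *Dmd*, and 2 in *Hsf1* null mice, *Dmd* and *Sgce*. *Dmd* was at 20.2 and 19.1 CPM in untreated WT colons and at 7.66 and 4.86 CPM at day 15, and at 15.2 and 31.3 CPM in untreated null colons and at 6.20 and 5.08 CPM at day 15. This list had a median log2 fold change of -0.85 in WT and -1.02 in *Hsf1* null mice. *Sgce*, with the smallest p of the list between the genotypes at day 15, was higher in WT by 0.95 (SE 0.39, adjusted p = 0.178 by edgeR).

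Of 10 transcriptional regulators tested, 2 were called lower in WT, *Gata6* and *Klf4*, and 1 in *Hsf1* null mice, *Gata6*. The median log2 fold change of these regulators was -0.13 in WT and -0.76 in *Hsf1* null mice. In each genotype 4 of them were above 0 and 6 below. *Gata6* was at 53.3 and 59.9 CPM in untreated WT colons and 31.2 and 20.7 CPM at day 15, and at 102 and 88.4 CPM in untreated null colons and 42.3 and 43.5 CPM at day 15. *Gata6* and *Klf4* are also transcribed in colon epithelium. *Srf* was at 61.8 and 91.7 CPM in untreated WT colons and at 82.3 and 82.7 CPM at day 15, which overlapped. In null colons it was at 52.6 and 32.0 CPM at day 0 and at 75.7 and 55.6 CPM at day 15, without overlap, and was not called (log2 fold change 0.61, SE 0.31, adjusted p = 0.199 by edgeR). *Myocd* was at 9.12 and 12.3 CPM in untreated WT colons and at 8.87 and 8.24 CPM at day 15 (log2 fold change -0.30, SE 0.54, adjusted p = 0.753 by edgeR), and at 5.83 and 16.5 CPM in untreated null colons and 3.10 and 6.29 CPM in treated ones (-1.18, SE 0.57, adjusted p = 0.180). *Srf* and *Myocd* are named here for their role, by a choice made with their values known.

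None of the genes in the 6 lists was called between the genotypes at day 15 by edgeR, where 3.17% of all genes were called in either direction. The median log2 fold change of WT minus *Hsf1* null at day 15 was -0.18 for the actin-binding and dense-body list, 0.06 for myosin regulation, -0.08 for calcium, 0.82 for the receptors, 0.44 for the regulators and -0.08 for the dystrophin complex, against -0.81 for the 10 contractile genes.

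**Figure D4:**
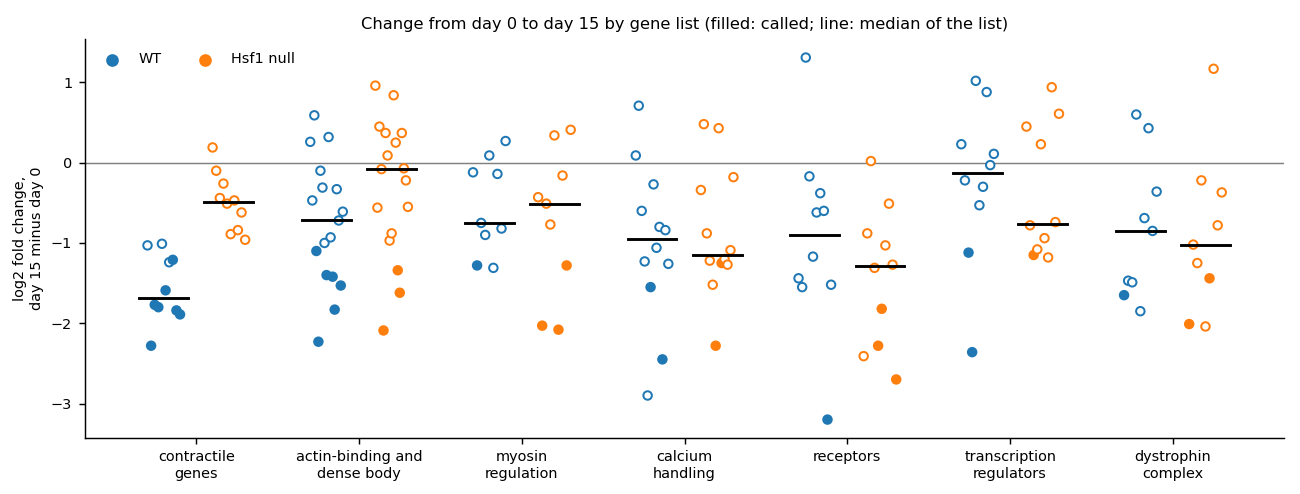
Log2 fold change from day 0 to day 15 (y axis) of the contractile genes and of 6 lists of partner genes (x axis), blue for WT and orange for *Hsf1* null mice, with a point for each gene, filled where called, and a line at the median. The medians of the contractile genes are -1.68 in WT and -0.49 in *Hsf1* null mice, and those of the calcium list are -0.95 and -1.15.

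Markers of other cell types moved with the contractile genes or against them. The 4 markers of interstitial cells of Cajal, the pacemaker cells of the gut, summed to between 688 and 976 CPM in untreated WT colons, 843 and 844 CPM in untreated null colons, 274 and 328 CPM in treated WT colons, and 368 and 551 CPM in treated null colons. Of these markers, *Ano1* was called lower in both genotypes and *Kit* in WT. The 5 leukocyte markers summed to between 131 and 251 CPM in untreated WT colons and between 135 and 186 CPM in untreated null colons. At day 15 they summed to between 507 and 799.8 CPM in WT colons and between 203 and 279.5 CPM in null colons. *Cd14* and *Cd3e* were called higher at day 15 than at day 0 in WT, as were 3.47% of all genes tested. *Cd3e* was also called higher in *Hsf1* null mice, as were 5.30% of all genes tested.

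The 8 epithelial markers summed to between 9372 and 13500.0 CPM in WT mice and between 10586 and 16015 CPM in untreated null colons, and to between 13845 and 15177 CPM and between 18980.4 and 21780.4 CPM at day 15. The 8 fibroblast markers summed to 2556 and 981 CPM in untreated WT colons, to 841 and 1251 CPM in untreated null colons, to 2426 and 2393 CPM in treated WT colons, and to 467 and 1480.3 CPM in treated null colons. The 6 pericyte markers summed to 216 and 169 CPM in untreated WT colons and 125 and 201 CPM in untreated null colons. They summed to 172 and 244 CPM in treated WT colons and 73.2 and 105 CPM in treated null colons. The 5 endothelial markers summed to 124 and 70.7 CPM, 86.4 and 112 CPM, 216 and 202 CPM, and 49.5 and 109.8 CPM in the same order of groups. At day 15, the pericyte marker *Kcnj8* and the endothelial marker *Cdh5* were called higher in WT than in *Hsf1* null mice. From day 0 to day 15, 1 fibroblast and 1 pericyte marker were called lower in *Hsf1* null mice, and 1 epithelial marker higher. In WT none of the fibroblast, pericyte, endothelial and epithelial markers was called between the days. At day 15 the summed contractile genes were lower in both WT mice than in both *Hsf1* null mice, and so were the sums of the epithelial markers and of the markers of interstitial cells of Cajal, whereas the sums of the fibroblast, pericyte, endothelial and leukocyte markers were higher in both WT mice. The 4 adipocyte markers summed to 231 and 77.4 CPM in untreated WT colons, 89.3 and 15.1 CPM in untreated null colons, 123 and 17.0 CPM in treated WT colons, and 3.26 and 192 CPM in treated null colons. The 2 mice of each group differed widely in them, and none of the 4 was called, with a median log2 fold change from day 0 to day 15 of -2.06 in WT and 0.72 in *Hsf1* null mice. No list had a marker at 0 in both mice of a group among those in the table. The part of these cell types in the levels of the contractile genes was not tested.

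**Figure D5:**
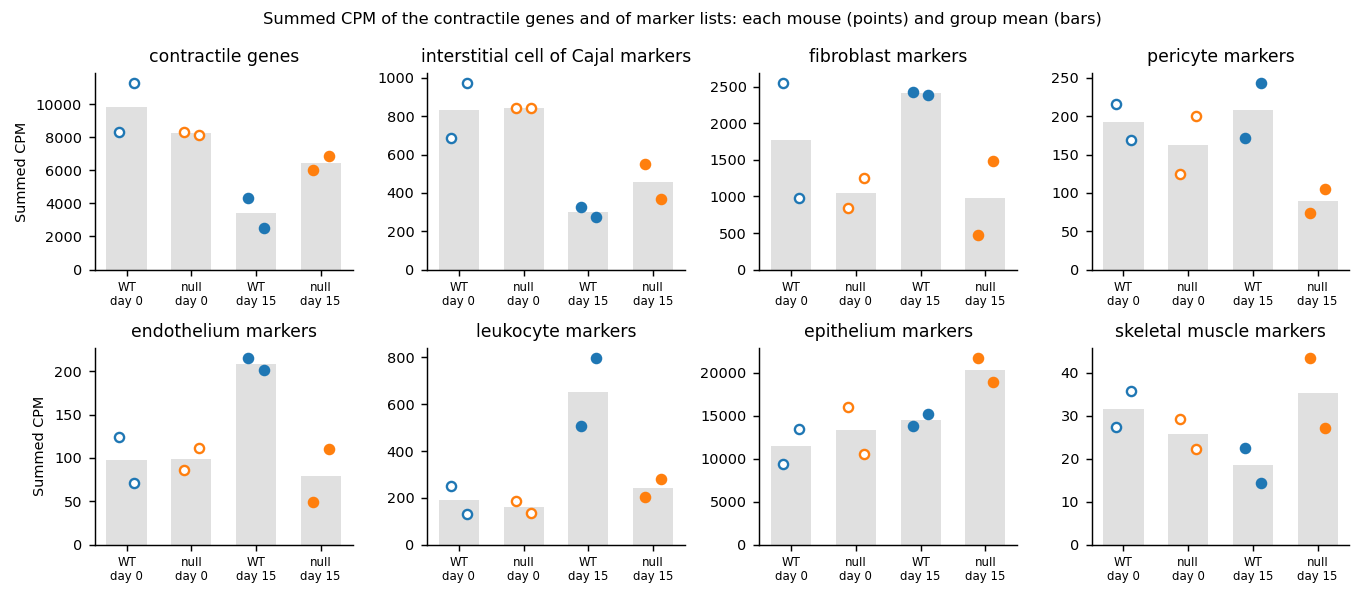
Summed CPM (y axes, linear from 0, a scale for each panel) of the 10 contractile genes and of markers of 7 other cell types, with a point for each mouse and a bar at the mean of 2 mice. The contractile genes are at 4300.3 and 2536 CPM in treated WT colons, when the leukocyte markers are at 507 and 799.8 CPM.

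Exon length moved with the comparison between days. The median log2 fold change from day 0 to day 15 was 0.20 in WT and 0.28 in *Hsf1* null mice over the third of genes with the shortest exons, and -0.17 and -0.19 over the third with the longest. The contractile genes range from *Myl9*, with 1162 bases of exon, to *Mylk*, with 11263 bases. With an offset for exon length, added after the data were seen, 8 of the 10 were called lower in WT, with *Myl9* added (log2 fold change -1.51, adjusted p = 0.0324 by edgeR), none was called in *Hsf1* null mice, and *Synm* alone was called between the genotypes at day 15.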

How the data were processed

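Per the labels, polyA RNA of the distal colon of 8 mice was made into libraries with a SENSE mRNA-Seq kit. The authors used STAR and mm10 to align reads and deposited raw counts per gene. The program that counted reads and its annotation are not given in the sources used here. The second deposited table holds a score per gene, the count divided by a DESeq2 size factor, and was used only as a check. Total counts were between 2553348 and 12440257 per library, and the number of mice, 2 a group, limits the precision. Nothing in the labels says more about how the mice of a group were chosen. The p-values weigh a difference against a spread between mice that is estimated over all 4 groups and shared in part between genes.

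Samples were grouped by genotype, day and replicate number in the labels. Genes with a mean normalized count above 5 (14371 of 15859) were fitted in R 4.3.3 with edgeR 4.0.16, by the quasi-likelihood test with TMM in 1 model of 4 groups, with a prior of 5.97 degrees of freedom, with Benjamini-Hochberg adjustment over all genes of a comparison. A call needed an adjusted p under 0.05 and a log2 fold change beyond 1 in either direction. Alternatives were DESeq2 1.42.0, other scalings, filters and thresholds, counts thinned to 2553348, the replicate number as a block, only the groups compared, and each mouse left out.

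The contractile genes and all lists were chosen with earlier results of these data known. Named in the text are the 10 genes, *Hsf1*, from each partner list the genes called between the genotypes at day 15 or, as none was, the gene with the smallest p there, and the 10 genes most like the set over the 8 mice. Other partner genes and markers were named after their values were seen. Values of 1 partner gene are not reported here. Positions and exon lengths come from GENCODE M21 on GRCm38, the assembly called mm10. Exon lengths were known for 13867 of the genes tested (96.5%).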

Additional observations from a re-analysis of the deposited data

How the results depend on the processing

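Of 990 values of the 10 genes under the alternatives, 926 (93.5%) kept their direction and their side of the threshold, 32 lost a call, 15 gained a call and 17 had the opposite sign. The causes were not tested. Of the 10 genes, the reported fit called 7 for day 15 minus day 0 in WT, 1 for WT minus *Hsf1* null at day 15, and 0 in the other 3 comparisons. DESeq2 called 9 in WT (1737 genes in all, against 1112), 3 between the genotypes at day 15 and 1, *Actg2*, for the interaction, and no filter on low counts gave 2 between the genotypes at day 15. With only the groups compared, 4 were called in WT (*Actg2*, *Mylk*, *Synm* and *Tagln*) among 950 genes in all, and 0 between the genotypes at day 15, a comparison with 6 calls in all against 455. No fold threshold gave 1 in *Hsf1* null mice, *Mylk*. With 1 mouse left out, where the remaining mouse is assumed to vary like the other groups, between 0 and 7 were called in WT, between 0 and 2 between the genotypes at day 15, and 0 in the other comparisons. The alternatives without the 2 shallowest libraries, with an offset for exon length and with exchanged numbers were added after the data were seen. Without the 2 shallowest libraries, 0 were called in WT and 0 between the genotypes at day 15, and at day 0 the signs of *Des* (-0.05), *Cnn1* (-0.38), *Tagln* (-0.14) and *Myl9* (-0.24) turned. With the offset for exon length, the change of *Acta2* in *Hsf1* null mice was -0.03. With 1 mouse left out, signs turned at day 0 for *Cnn1* (-0.27 to 0.44), *Myh11* (-0.47 to 0.19), *Myl9* (-0.17 to 0.31), *Mylk* (-0.06 to 0.25), *Synm* (-0.26 to 0.11) and *Tagln* (-0.20 to 0.37), between the genotypes at day 15 for *Lmod1* (-0.88 to 0.23), and in *Hsf1* null mice for *Acta2* (-0.08 to 0.43) and *Actg2* (-0.43 to 0.18). The CArG box with up to 1 mismatch was found in 3 promoters in place of 1.

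Replicate numbers are shared between groups, but same-numbered mice are different animals, and the deviations of same-numbered mice correlated at 0.157 at day 15, 0.00586 at day 0, -0.301 in WT and 0.202 in *Hsf1* null mice. The numbers therefore pair nothing by design. With the replicate number as a block, the counts of the 10 genes called were 7 in WT, 1 between the genotypes at day 15 and 0 otherwise. With the 2 WT mice at day 0 exchanged in the block, they were 8 in WT, 3 between the genotypes at day 15, 1 in *Hsf1* null mice and 0 otherwise, while the calls over all genes were 1856, 1314 and 2296 in these 3 comparisons, against 868, 343 and 1505 with the numbers as labelled.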

Other observations

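Neural and other muscle markers in the same libraries were read beside the contractile genes. The 6 markers of enteric neurons summed to between 63.8 and 69.9 CPM in WT mice and between 69.0 and 86.4 CPM in untreated null colons, and to between 90.2 and 134 CPM and between 127 and 193 CPM at day 15. Of these, *Ret* was called higher at day 15 in WT (log2 fold change 1.54, SE 0.38, adjusted p = 0.0380 by edgeR) and *Uchl1* in *Hsf1* null mice (1.40, SE 0.34, adjusted p = 0.0304). The share of all genes tested that was called higher was 3.47% in WT and 5.30% in *Hsf1* null mice. In each genotype both neuronal sums at day 15 were above both at day 0, but *Uchl1* made up much of each sum (34.5 and 36.9 CPM in untreated and 79.1 and 48.3 CPM in treated WT colons) and the list went both ways. Log2 fold changes were below 0 for 3 of the 6 markers in WT (*Elavl4* at -2.06, *Elavl3* at -0.64 and *Snap25* at -0.43) and for 2 in *Hsf1* null mice (*Elavl4* at -2.20 and *Snap25* at -0.46), none of them called. The 4 glial markers summed to 13.0 and 10.3 CPM in untreated WT colons and 15.1 and 15.5 CPM in treated ones, and to 17.0 and 21.9 CPM in untreated null colons and 16.8 and 14.6 CPM in treated ones, and none was called.

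*Acta1*, the actin of skeletal muscle, was at 6.76 and 6.75 CPM in untreated WT colons, 6.24 and 2.87 CPM in untreated null colons, 13.5 and 7.29 CPM in treated WT colons, and 26.2 and 16.5 CPM in treated null colons. It was called higher at day 15 in *Hsf1* null mice (log2 fold change 2.13, SE 0.49, adjusted p = 0.0264 by edgeR). Of the 6 skeletal muscle markers tested it was the 1 called higher, and *Ckm*, the muscle creatine kinase, was called lower at day 15 in WT, at 15.1 and 24.6 CPM in untreated and 5.13 and 1.48 CPM in treated colons (log2 fold change -2.54, SE 0.62, adjusted p = 0.0372 by edgeR). In null colons *Ckm* was at 18.5 and 15.5 CPM at day 0 and 13.3 and 5.35 CPM at day 15, and was not called. *Acta1* and *Ckm* were chosen after their values were seen. *Actc1*, the cardiac actin, was at 57.6 and 124 CPM, 66.8 and 91.6 CPM, 57.1 and 31.7 CPM, and 37.8 and 63.0 CPM in the same order. Actins of the other muscle types are close in sequence to *Acta2* and *Actg2*, and reads shared between them were not separated here.

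The 10 genes whose levels over the 8 mice were most like the mean of the contractile genes were *Steap3*, *Tlk1*, *Igdcc4*, *Bphl*, *Stradb*, *Chka*, *Tmem236*, *Ptprn2*, *Iqch* and *1010001N08Rik*. Pearson's r on log2(CPM + 1) was 0.9889 for *Steap3* and 0.9669 for *1010001N08Rik* (n = 8 mice in 4 groups). Of 14361 other genes, 1.46% had an r above 0.9. The mice share their groups and library depths, so that any gene with the same order of group means scores high, and the values are a description. *Steap3* was at 44.8 and 65.1 CPM in untreated WT colons and at 23.1 and 12.1 CPM in treated WT colons.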
